A study of Mus musculus with 12 samples.

Results

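The genes described here belong to endoplasmic reticulum-associated degradation (ERAD), the route by which misfolded secretory proteins leave the endoplasmic reticulum (ER) and are destroyed. The 10 genes are Edem1, Edem2, Edem3, Os9, Sel1l, Syvn1, Herpud1, Derl1, Derl2 and Derl3, and each was found by its symbol among the 23339 genes kept from the count table of mouse islets of Langerhans. All 10 were counted well enough to be among the 9664 genes tested. The list was drawn up with the values of Edem1 and Herpud1 in knockout (KO) and control islets already known, so the difference between KO and control is given below as a description and supports nothing.

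Libraries came from 6 samples of genotype miR-17-92/106 KO and 6 of genotype miR-17-92/106 Control, all in strain C57BL/6. Age, sex, the cell type in which the microRNA clusters were removed, and any allele or transgene the controls carried are not stated in the labels. No label ties a library to a separate animal, so any p-value measures the spread between these libraries, which may be technical. Markers of beta cells, the insulin-secreting cells that make up most of a mouse islet, took 49.96% to 64.1% of the counts in KO and 58.9% to 65.6% in control libraries. Transcripts that mark acinar cells, which surround the islets and secrete digestive enzymes, were high in 3 libraries, namely KO replicates 5 and 6 with 13.6% and 10.8% of all counts and control replicate 1 with 5.55%, and made up 1.16% to 2.59% elsewhere. Each of the 30 acinar markers had counts in at least 1 library. Markers of delta cells, the somatostatin cells of the islet, took 0.186% to 0.284% of the counts in KO and 0.242% to 0.357% in control libraries (3 of 3 markers counted). Endothelial markers took 0.00617% to 0.0101% in KO and 0.00953% to 0.0117% in control libraries (5 of 5 counted), and alpha cell markers 0.587% to 0.790% in KO and 0.596% to 1.27% in control libraries (5 of 5 counted). Ppy, the marker of pancreatic polypeptide (PP) cells, took 0.163% to 0.416% of the counts in KO libraries (median 0.273%). In control libraries it took 0.102% to 0.363% (median 0.162%). Total counts per library ran from 2642420 to 5099566. Title numbers ran from 659 to 703 in the 6 KO libraries and from 706 to 992 in the 6 control libraries. Every KO number thus lay below every control number, and the labels do not state what the number means.

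In ERAD, the EDEM proteins trim mannose from the sugar chains of proteins that fail to fold, and the lectin OS-9 reads the trimmed chains. SEL1L hands the protein to SYVN1 (HRD1), a ubiquitin ligase in the ER membrane, with the help of HERPUD1 and the derlins, and the protein is then pulled into the cytosol for the proteasome. Many of these genes are induced in the unfolded protein response through XBP1, ATF6 and ATF4, and in beta cells, which make large amounts of proinsulin, the route is known for clearing misfolded proinsulin.

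The deleted microRNAs pair with messenger RNAs through their seed, bases 2 to 8, which is set in capitals in these mature sequences from RefSeq (GRCm38.p6). They are shown because the seeds decide which ERAD transcripts hold a match. The genotype label gives the second cluster only as 106, which was read here as the cluster of miR-106b, miR-93 and miR-25. The 9 microRNAs of both clusters share 4 seeds: miR-17-5p, miR-20a-5p, miR-93-5p and miR-106b-5p have the first, miR-19a-3p and miR-19b-3p the second, miR-25-3p and miR-92a-3p the third, and miR-18a-5p the fourth.
miR-17-5p, miR-17-92 cluster, chr14:115043684-115043706, plus strand: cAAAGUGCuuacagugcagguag
miR-106b-5p, miR-106b cluster, chr5:138165787-138165807, minus strand: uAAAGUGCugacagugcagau
miR-19b-3p, miR-17-92 cluster, chr14:115044358-115044380, plus strand: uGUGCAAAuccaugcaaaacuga
miR-92a-3p, miR-17-92 cluster, chr14:115044476-115044496, plus strand: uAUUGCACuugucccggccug
miR-18a-5p, miR-17-92 cluster, chr14:115043867-115043889, plus strand: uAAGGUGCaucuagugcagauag

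Of the 10 transcripts, 3 held a complement to a seed in their longest annotated 3′ UTR, and 7, among them Herpud1 and Derl3, held none. Edem1 held 2 matches in a 3′ UTR of 3792 bases, while Derl1 and Derl2 held 1 each. The matches are in capitals with the bases around them, taken from the transcript sequences of GENCODE M21 (GRCm38).
Edem1, miR-19a-3p and miR-19b-3p, position 1208 of the 3′ UTR: cacatgggaagTTTGCACaaactgttcct
Edem1, miR-25-3p and miR-92a-3p, position 3604 of the 3′ UTR: ctctctgtgatGTGCAATatgcttggccg
Derl1, miR-17-5p seed group, position 657 of 2266: ctcgttgctagGCACTTTtctcctctgag
Derl2, miR-17-5p seed group, position 125 of 2879: taactccagaaGCACTTTacgggatggta
Of 8933 tested genes with an annotated 3′ UTR, 13.6% held a match to the miR-19 seed, 7.85% to the miR-25 and miR-92a seed, 14.9% to the miR-17-5p seed, 9.46% to the miR-18a-5p seed and 34.4% to any of them. A match is a stretch of letters, and whether any of these is bound in islets was not tested.

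Promoter windows from RefSeq (GRCm38.p6, from 250 bases before to 50 after the start of transcription) were available for 9 of the 10 genes. They were searched on both strands for 4 motifs of the unfolded protein response. The ER stress element (ERSE) was read as CCAAT and CCACG with 9 bases between them, and ERSE-II as ATTGG and CCACG with 1 base between them. The ATF4 composite element (CARE) was read as TGATG and AA with 1 base between them, and the XBP1 element (UPRE) as TGACG followed directly by TGG. ERSE was found in the windows of Syvn1 and Derl3, and ERSE-II and CARE in that of Herpud1. The CARE of Herpud1 lay on the strand opposite to the gene, so its capitals show the reverse complement. The stretches that hold them are given upstream of the start site, with the motifs in capitals.
Herpud1, chr8:94386311-94386393, plus strand, CARE then ERSE-II: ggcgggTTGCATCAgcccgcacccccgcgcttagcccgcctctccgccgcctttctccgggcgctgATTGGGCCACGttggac
Syvn1, chr19:6046520-6046562, plus strand, ERSE: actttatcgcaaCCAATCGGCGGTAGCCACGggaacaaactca
Derl3, chr10:75893230-75893272, plus strand, ERSE on the opposite strand: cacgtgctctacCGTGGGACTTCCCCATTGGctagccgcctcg
Of 32851 promoter windows of the table, 39 (0.119%) held ERSE, 12 (0.0365%) ERSE-II, 1304 (3.97%) CARE and 222 (0.676%) UPRE. Counted by gene and not by window, ERSE stood in a window of 7 of 21 other genes of the XBP1 and ATF6 arms: Calr, Canx, Creld2, Dnajc3, Hsp90b1, Hspa5 and Pdia6. The Edem1 window held none of the 4 motifs, which says only that these letters are not in that window.

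Levels of the ERAD genes differed widely from one another. Values are in CPM, counts scaled to a common library size. Per kilobase of exon, Herpud1 was the highest, at 102 ± 8.12 CPM per kb in KO and 82.6 ± 11.6 CPM per kb in control islets (SD over 6 libraries each). The level of Herpud1 in control islets was above that of 97.5% of the 9137 tested genes with an annotated length. Os9 was next, at 53.98 ± 6.30 CPM per kb in KO and 51.3 ± 1.91 CPM per kb in control islets, and Edem3 was the lowest, at 4.02 ± 0.27 CPM per kb in KO and 3.88 ± 0.51 CPM per kb in control islets. Edem1, at 8.34 ± 0.997 CPM per kb in KO and 6.39 ± 0.36 CPM per kb in control islets, stood just above Edem3 in the order of control levels.

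Herpud1 stood above Os9, Os9 above Derl1, Edem2 above Syvn1 and Edem1 above Edem3 in 12 of 12 libraries, with ranges that did not touch in either group. The other neighbours in the order overlapped in range. Derl1 was above Edem2 in 8 of 12 libraries, Syvn1 above Sel1l in 9, Sel1l above Derl3 in 9, Derl3 above Derl2 in 10 and Derl2 above Edem1 in 5. With coding length in place of exon length, Herpud1 was still the highest at 164 CPM per kb in control islets and Edem3 the lowest at 8.72 CPM per kb. Derl1 and Derl2, whose annotated exons are long for their short proteins, then came directly after Herpud1, at 90.0 and 78.3 CPM per kb.

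**Figure D1:**
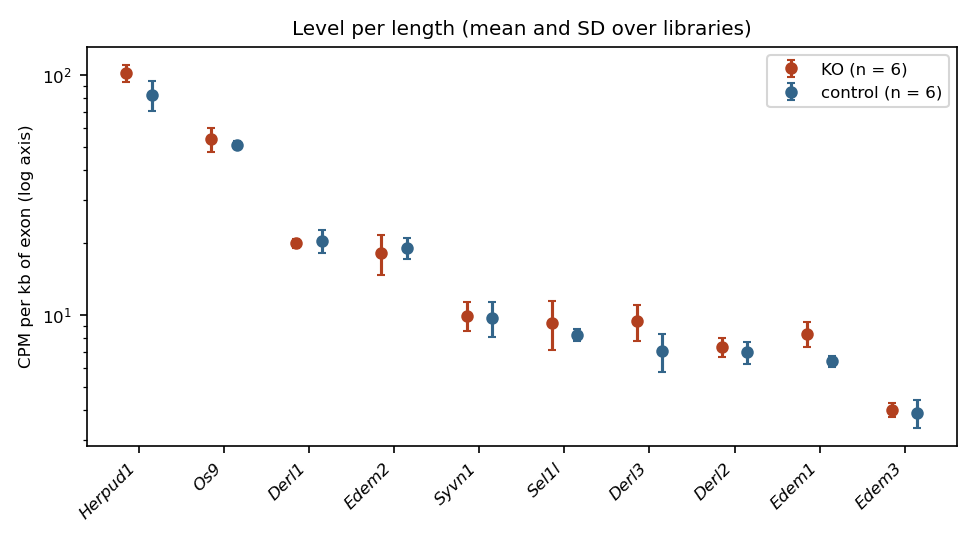
Level of each ERAD gene per kilobase of exon (log axis), as the mean and SD over the 6 KO and the 6 control libraries, in the order of the control means. Herpud1 and Os9 stand at or above 44.9 CPM per kb in every library, and Edem3 lies between 3.25 and 4.47 CPM per kb.

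The mannose-trimming enzyme Edem1 was higher in KO than in control islets, without overlap between the groups. Its lowest, median and highest values were 46.1, 53.4 and 65.4 CPM in the KO libraries, against 37.2, 41.7 and 44.0 CPM in the control libraries. The 6 KO libraries all stood above the 6 controls, with KO replicate 5 at the top and KO replicate 2 the nearest to the controls. The means were 53.8 ± 6.43 CPM in KO islets, against 41.3 ± 2.34 CPM in controls (SD over 6 libraries each). The log2 fold change was 0.37 ± 0.08 (SE). Of all genes tested, 0.341% had every KO library above every control library, and 1 of the 10 ERAD genes did. Since Edem1 was chosen with this difference known, nothing is read from that count.

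Herpud1, the ER membrane protein that ties the ligase complex to the derlins, also stood higher in KO, with overlap. Its values were 220.0, 233 and 272 CPM (lowest, median, highest) in the KO libraries, against 153, 189 and 236 CPM in the control libraries. Control replicate 2, at 236 CPM, lay inside the KO range, and the other 5 controls lay below all KO libraries. The means were 237 ± 18.9 CPM in KO islets, against 193 ± 26.99 CPM in controls (SD over 6 libraries each). The log2 fold change was 0.30 ± 0.09 (SE). Control replicate 5 was the lowest, and without it the log2 fold change was 0.24 ± 0.09.

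Derl3, the derlin best known from secretory cells such as acinar and plasma cells, had the highest fold change of the 10. It was sparsely counted, with 33 to 102 counts per library. Its values were 15.02, 18.7 and 23.4 CPM in the KO libraries, against 10.8, 15.1 and 16.95 CPM in the control libraries, so that 4 of 6 KO libraries stood above all controls. The log2 fold change was 0.41 ± 0.14 (SE). Of the KO libraries, replicate 5 had the highest Derl3 value, 23.4 CPM, and replicate 6 the lowest, 15.02 CPM. Both were rich in acinar transcripts. Markers of plasma and B cells had a summed share of 0.00121% to 0.00926% in KO and 0.000885% to 0.00134% in control libraries. Of 8 markers, 1 (Tnfrsf17) was at 0 in all 12. KO replicate 6 had the highest share. It also had the highest share of macrophage and lymphocyte markers, 0.00856%, against at most 0.00133% in control libraries. The part of any of these cell types in the Derl3 values was not tested. In bulk islets a change in cell numbers and one in RNA per cell cannot be told apart.

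**Figure D2:**
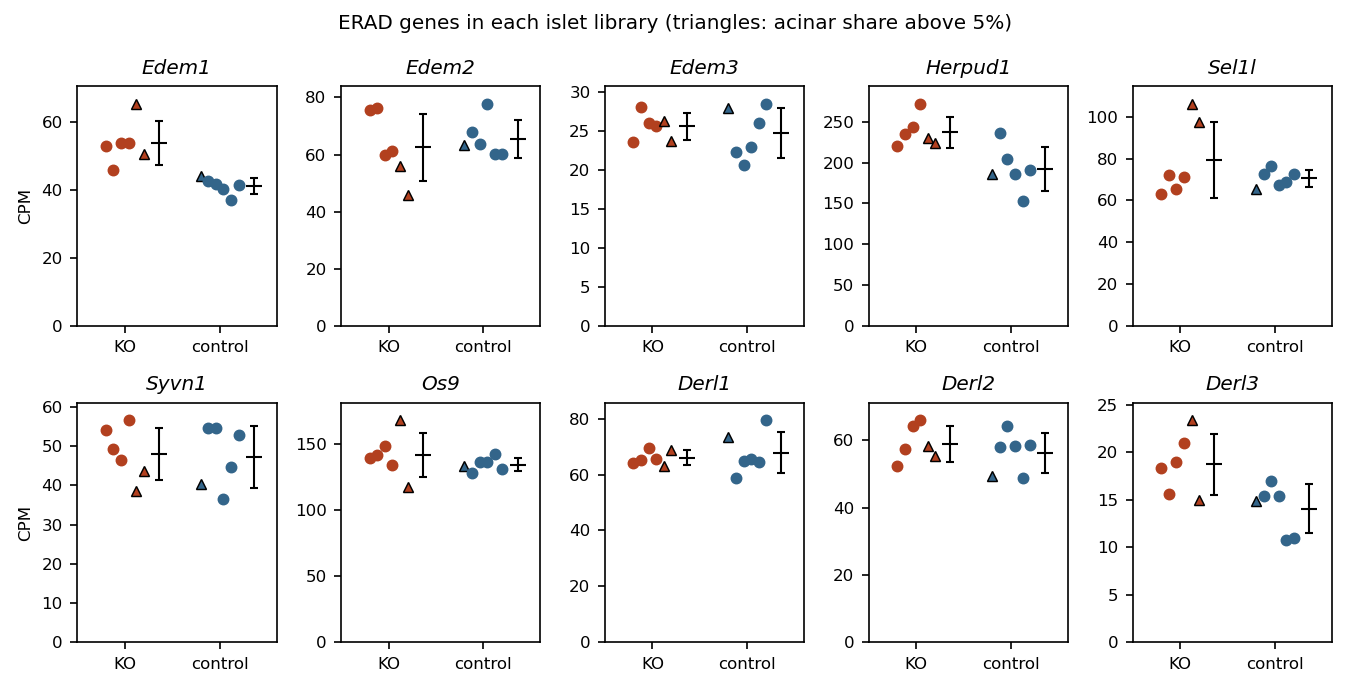
CPM of the 10 ERAD genes in each library (points, KO left of control), with the mean and SD beside each group. Triangles mark the 3 libraries with an acinar share above 5%: Edem1 is the 1 gene without overlap between groups, and both KO triangles of Sel1l stand apart at 97.4 and 106 CPM.

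The other 7 genes had log2 fold changes between -0.06 and 0.15, with SEs of 0.08 to 0.11. None of the 10 genes passed an adjusted p of 0.05 in the fit across all genes tested (edgeR quasi-likelihood test, Benjamini-Hochberg), where 0.124% of genes passed. In that fit Edem1 was at an adjusted p of 0.0538, Herpud1 at 0.341 and Derl3 at 0.377, and the other 7 lay between 0.779 and 0.965. Edem1, Herpud1 and Derl3 had an unadjusted p under 0.05, as did 764 of the 9664 genes tested (7.91%). With DESeq2, which called 0.229% of 12226 genes with an adjusted p, Edem1 passed (adjusted p = 0.0431) and the other 9 did not. In the authors' deposited table, the unadjusted p of DESeq2 was 7.00e-05 for Edem1 and 0.000512 for Herpud1. These values place the genes in the whole table and are no test of the list, which was chosen on them. Of the 10 fold changes 8 were above 0, with a median of 0.07, beside a median of 0.0033 over all genes tested, of which 4894 were above 0.

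**Figure D3:**
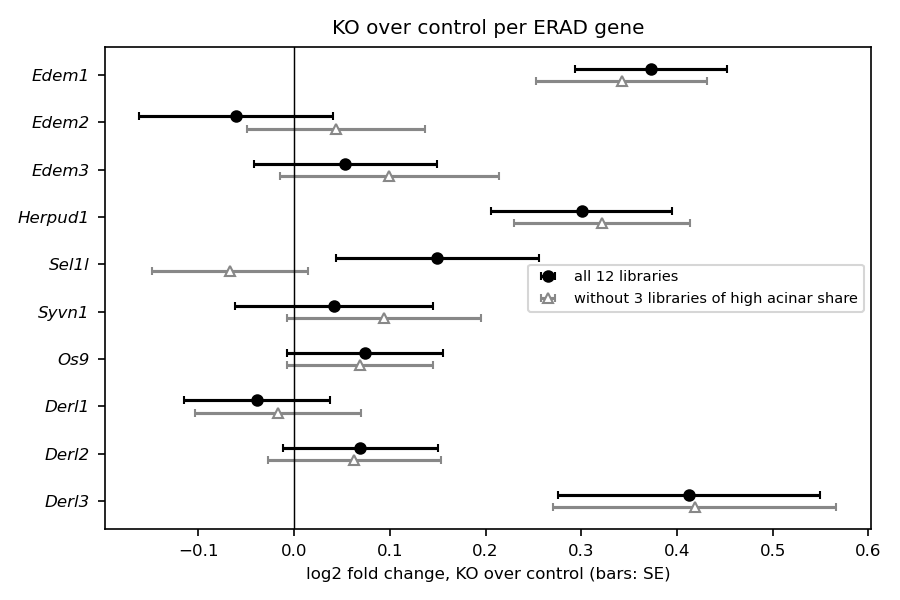
Log2 fold change (KO over control) of each ERAD gene with its SE, for all 12 libraries (filled circles) and without the 3 libraries of high acinar share (open triangles). Edem1, Herpud1 and Derl3 lie between 0.30 and 0.42 in both, and Sel1l is at 0.15 with all libraries and at -0.067 without these 3.

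Edem2, the enzyme that removes the first mannose, averaged 62.5 ± 11.8 CPM in KO islets, against 65.5 ± 6.64 CPM in controls (SD over 6 libraries each). The log2 fold change was -0.06 ± 0.10 (SE). Edem3, which trims further mannoses, averaged 25.6 ± 1.71 CPM in KO islets, against 24.8 ± 3.23 CPM in controls. The lectin gene Os9 averaged 142 ± 16.6 CPM in KO islets, against 135 ± 5.02 CPM in controls, with KO replicates 5 and 6 at its extremes, 168 and 118 CPM. Of the counts of the 3 Edem genes together, Edem1 took 30.6% to 44.3% in KO and 28.6% to 33.1% in control libraries. The groups overlapped, with KO replicate 2 lowest among the KO libraries. KO replicates 5 and 6 had the highest, 44.3% and 42.1%, and were also the KO libraries with the lowest Edem2 values, 56.1 and 45.8 CPM.

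In the ligase complex, Sel1l was high in the 2 KO libraries richest in acinar transcripts. Its values were 62.9, 71.8 and 106 CPM (lowest, median, highest) in KO, against 65.7, 70.7 and 76.5 CPM in control islets. KO replicates 5 and 6, at 106 and 97.4 CPM, stood above all other libraries, while control replicate 1, with an acinar share of 5.55%, was the lowest control. The log2 fold change of Sel1l was 0.15 ± 0.11 (SE) with all libraries and -0.067 ± 0.08 without the 3 libraries of high acinar share, so its direction turned. Whether the acinar transcripts account for this was not tested. Syvn1, the ligase itself, averaged 48.1 ± 6.65 CPM in KO islets, against 47.2 ± 7.86 CPM in controls (SD over 6 libraries each), and KO replicate 5 was its lowest KO library at 38.7 CPM. Its exons share 91 bases with Mrpl49 on the opposite strand, and no label states whether reads were counted by strand.

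Derl1 and Derl2, the derlins found in most cells, had log2 fold changes of -0.04 ± 0.08 and 0.07 ± 0.08 (SE). Derl1 averaged 66.0 ± 2.66 CPM in KO islets, against 67.8 ± 7.37 CPM in controls (SD over 6 libraries each), with control replicates 1 and 6 at the top at 73.5 and 79.4 CPM. Derl2 averaged 58.8 ± 5.24 CPM in KO islets, against 56.1 ± 5.99 CPM in controls, and 231 bases of its exons overlap Mis12 on the opposite strand. Both transcripts hold the seed match shown above, as does Edem1 for other seeds, while Herpud1 and Derl3 hold none. Any link between a match and a fold change was not tested. Derl3 took 10.8% to 16.2% of the counts of the 3 derlin genes in KO and 7.35% to 11.6% in control libraries.

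Edem1 and Herpud1 kept their direction without the acinar-rich libraries. In the remaining 4 KO and 5 control libraries, Edem1 averaged 51.7 ± 3.82 CPM in KO islets, against 40.7 ± 2.12 CPM in controls (SD), and its log2 fold change was 0.34 ± 0.09 (SE). Herpud1 averaged 243 ± 21.96 CPM in KO islets, against 194 ± 29.9 CPM in controls, and its log2 fold change was 0.32 ± 0.09, and Derl3 had 0.42 ± 0.15. In these 9 libraries, as in all 12, every KO title number is below every control one, so the number and the genotype cannot be told apart. A fit with a term that splits title numbers after 706 rests on control replicate 1, which is itself acinar-rich (5.55% of counts). That fit cannot separate the genotype from what is particular to this library. Its log2 fold change was 0.28 ± 0.16 for Edem1 and 0.35 ± 0.19 for Herpud1.

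**Figure D4:**
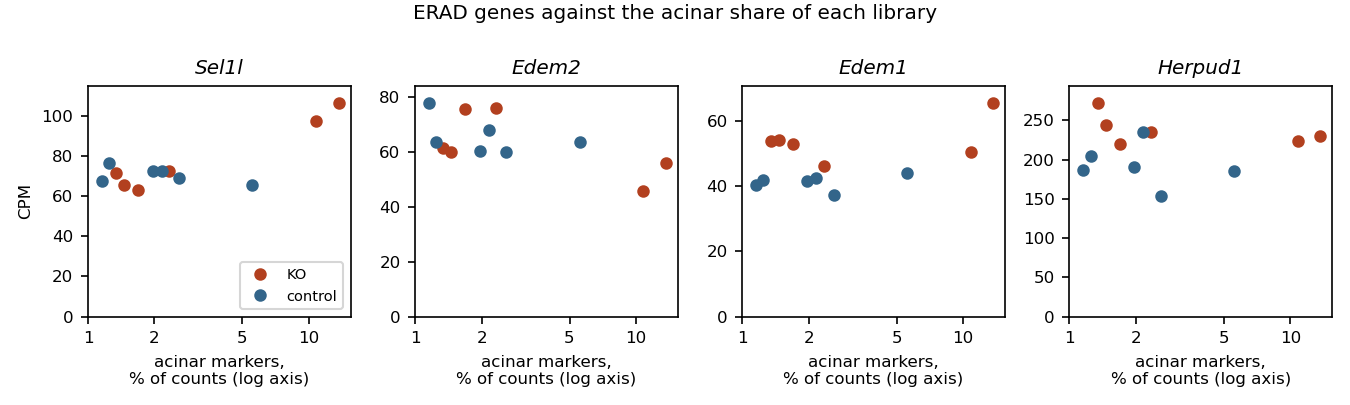
CPM of Sel1l, Edem2, Edem1 and Herpud1 against the acinar share of each library (percent of counts in 30 acinar markers, log axis), for KO and control libraries. The 2 KO libraries above 10% are the highest for Sel1l, at 97.4 and 106 CPM, while Herpud1 there, at 224 and 230 CPM, lies within the range of the other KO libraries.

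After the mean of each group was removed from log2 CPM, Edem1 was compared with the other 9 genes over the 9 libraries of low acinar share, which leaves out the difference between KO and control. Herpud1 had a Pearson r of 0.64 with Edem1 (exact permutation within groups, two-sided p = 0.0708, adjusted p = 0.30 over 9 pairs) and a Spearman rho of 0.78 (exact p = 0.0285, adjusted p = 0.256). Without the 2 libraries farthest from the median of Edem1, r was 0.59. With single libraries left out, r was 0.39 without control replicate 5 (adjusted p = 0.70) and 0.89 without KO replicate 2 (adjusted p = 0.025), so its size rests on single libraries. Derl3 had r = 0.65 (exact p = 0.0458, adjusted p = 0.30; rho = 0.55, exact p = 0.148, adjusted p = 0.424), which dropped to 0.06 without the 2 farthest libraries and so rests on them, and was 0.17 without scaling factors. Of the other 7 genes, Derl2 and Syvn1 had r of 0.58 and 0.41, and Derl1 and Sel1l were near 0 (0.08 and -0.08). Edem2, Os9 and Edem3 were negative (-0.29, -0.46 and -0.46). Several of these signs turned with the setting. Over all 12 libraries r was 0.46 for Os9, 0.43 for Sel1l, -0.23 for Syvn1 and -0.03 for Derl1. Without scaling factors it was 0.26 for Os9, 0.28 for Sel1l and 0.22 for Edem3. Derl2 and Edem2 kept their signs in both. Over the 9 libraries of low acinar share, none of the 9 pairs passed after adjustment.

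The 5 genes that varied most like Herpud1 and the 5 most like Edem1 had no name in common. Among 4861 other genes with a mean of at least 50 counts, and over all 12 libraries with group means removed, the 2 nearest to Herpud1 were Chac1 (r = 0.89) and Atf4 (r = 0.86). Chac1 encodes a glutathione-degrading enzyme and Atf4 the transcription factor of the PERK arm of the unfolded protein response. Next came Cpox, an enzyme of heme synthesis (r = 0.83), Ube2g2, a ubiquitin-conjugating enzyme of ERAD (r = 0.83), and Klhl21 (r = 0.81). Without the acinar-rich libraries, r was 0.92 for Chac1, 0.89 for Atf4 and 0.87 for Ube2g2. Control replicate 5 was low for Herpud1, Chac1 and Atf4 alike, at 153, 7.18 and 284 CPM, and without it r with Herpud1 was 0.79 for Chac1 and 0.75 for Atf4.

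The 5 genes most like Edem1 were 2310039H08Rik (r = 0.88), Rn45s, the precursor of ribosomal RNA (r = 0.87), Ccdc12 (r = 0.86), Rrbp1, a protein of the rough ER membrane (r = 0.84), and Arcn1, a coat protein of vesicles that return to the ER (r = 0.83). Without KO replicate 5, the highest library for Edem1, r of Rn45s was 0.65. Over the 9 libraries of low acinar share, r was 0.59 for Rn45s and 0.69 for Arcn1. It was 0.91 for Ccdc12, 0.84 for 2310039H08Rik and 0.84 for Rrbp1. Herpud1 itself ranked 977 of 4861 by likeness to Edem1 (r = 0.29 over 12 libraries), and without control replicate 5 that r was 0.05. Derl3 was the ERAD gene most like Edem1 (r = 0.71, rank 46), and Derl2 the one most like Herpud1 (r = 0.72, rank 28). These likenesses share libraries, depth and scaling, and they describe the 12 libraries only.

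**Figure D5:**
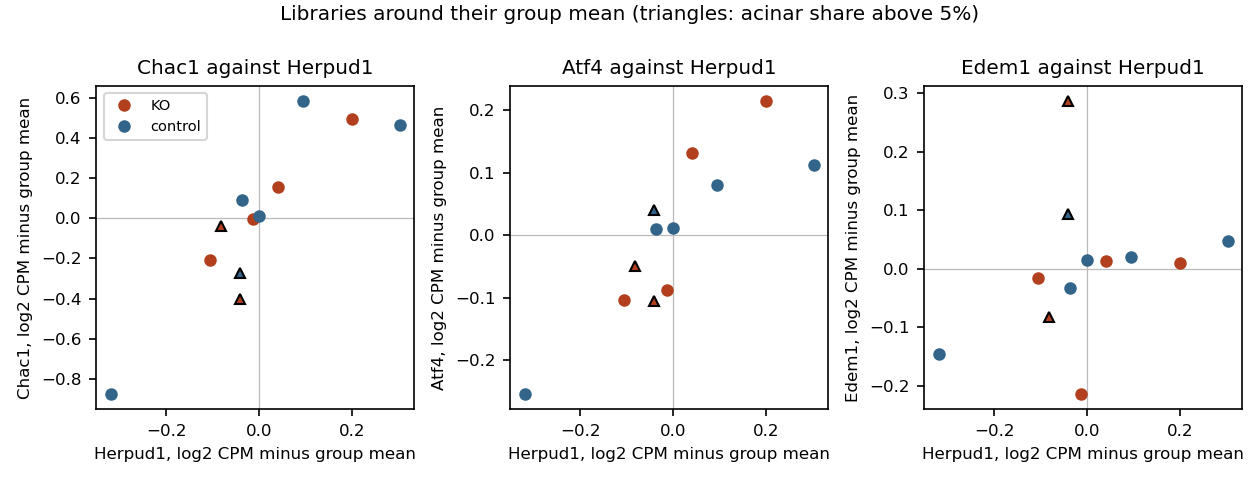
Chac1, Atf4 and Edem1 against Herpud1, as log2 CPM minus the mean of the library's own group, for 6 KO and 6 control libraries (triangles have an acinar share above 5%). Chac1 and Atf4 follow Herpud1 (r = 0.89 and 0.86), with control replicate 5 at the lower left. Edem1 has r = 0.29 with Herpud1. Without control replicate 5, r with Herpud1 is 0.79 for Chac1, 0.75 for Atf4 and 0.05 for Edem1.

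Of 59 tested genes in 5 lists of further ERAD machinery, 0 passed the threshold in either direction (edgeR), and DESeq2 called 0. An unadjusted p under 0.05 was found for 2 of the 59, beside 7.91% of all genes tested. Of the 59, 34 were above 0 and 25 below. Their median log2 fold change was 0.02, beside 0.0033 over all genes. Glycan trimming and recognition had a median of 0.01 over 10 genes, and its member with the smallest p, the mannosidase gene Man1b1, was at 0.09 ± 0.08 (SE). The other ubiquitin ligases had a median of 0.05 over 10 genes, with the ligase gene Rnf185 at 0.28 ± 0.12. Ubiquitin-conjugating enzymes had a median of 0.05 over 5 genes, with Aup1, which recruits such an enzyme, at -0.16 ± 0.09. Membrane scaffolds had a median of 0.03 over 14 genes, with Vimp, an adaptor for the p97 ATPase, at 0.19 ± 0.08. Extraction and delivery to the proteasome had a median of -0.03 over 20 genes, with Ube4b, a ubiquitin chain elongation factor, at -0.16 ± 0.08.

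ERAD genes are regulated through several arms of the unfolded protein response. In the list of XBP1 and ATF6 sensors and targets, 13 of 26 tested genes were above 0 and 13 below, with a median log2 fold change of -0.0012 and 0 past the threshold (edgeR; 0 with an unadjusted p under 0.05, beside 7.91% of all genes tested, and 0 called by DESeq2). Its member with the smallest p, Sil1, which encodes a nucleotide exchange factor of the ER chaperone BiP, was at 0.13 ± 0.08 (SE). Xbp1 itself averaged 112 ± 6.34 CPM in KO islets, against 113 ± 6.79 CPM in controls (SD over 6 libraries each), and Atf6 37.0 ± 2.50 CPM in KO islets, against 38.5 ± 3.28 CPM in controls. Ern1, the gene of the sensor IRE1, was under the count filter, at 0.193 ± 0.235 CPM in KO islets, against 0.436 ± 0.464 CPM in controls. Counts per gene cannot show the splicing of Xbp1 by which IRE1 acts.

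In the list of the PERK and ATF4 arm, 23 of 25 tested genes were above 0 and 2 below, with a median log2 fold change of 0.21, beside 0.0033 over all genes. In that list 1 gene passed: Chac1 rose to 28.8 ± 6.48 CPM in KO, against 14.4 ± 4.99 CPM in control islets (SD; edgeR, adjusted p = 0.00892; higher than all controls in 6 of 6 KO libraries). Of the 25, 10 had an unadjusted p under 0.05, beside 7.91% of all genes tested, and DESeq2 called 1. The alpha, delta and PP cell and endothelial marker shares given above also differed between these libraries. Their part in the values of this list and of the ERAD genes was not tested. Atf4 averaged 364 ± 36.03 CPM in KO islets, against 340 ± 29.1 CPM in controls, and its log2 fold change was 0.10 ± 0.09 (SE), and Eif2ak3, the gene of the sensor PERK, had 0.19 ± 0.13. Chac1 and this arm were known to differ in these data when the list was written, so the counts are a description.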

How the data were processed

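RNA of islets was sequenced from 6 KO and 6 control samples. Per the file headers, the deposited table holds raw read counts per gene and the counts divided by 1 factor per library, a normalized signal by the authors that was used only to check those factors (0.662 to 1.35). Its log2 fold change and p-value per gene are DESeq2 output, per the file headers. The submitters' processing notes name TopHat2, HTSeq, DESeq2 1.4.5 and mm9, without their roles; no source used here names the annotation. The 27 rows whose gene name had become a date, with 0.0447% of the counts, were left out.

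Counts were fitted in edgeR 4.0.16 under R 4.3.3 and tested by quasi-likelihood (TMM factors, minimum count 10, minimum total 15, no covariate) over all genes, adjusted by Benjamini-Hochberg at 0.05, after a check on simulated data. CPM use TMM-scaled library sizes, log2 CPM a prior count of 2, and an SE is the log2 fold change over the root of F. Lengths and 3′ UTRs of at least 20 bases come from GENCODE M21 (GRCm38), matched by symbol, promoters (9 of 10 genes) and microRNAs from RefSeq. As this build is not mm9, its coordinates are given only beside sequences. No 2 libraries were copies (66 pairs, lowest chi-square per gene 1.97). Counting error alone limits genes with few counts.

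Members, lists and the naming rule were chosen with earlier results of these data known. The rule took all members, the 5 genes most like Edem1 and Herpud1, up to 4 passing genes of each list or the one with the smallest p, and Xbp1, Atf6, Ern1, Eif2ak3 and Atf4. Alternatives were DESeq2 1.42.0, limma 3.58.1 (voom with quality weights), other factors, filters and covariates, and each library left out; leaving libraries out of the likenesses was chosen after seeing the data. Figures used matplotlib 3.10.9.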

Additional observations from a re-analysis of the deposited data

How the results depend on the processing

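Directions of Edem1, Herpud1, Derl3, Os9 and Derl2 held in all 23 alternatives. The log2 fold change of Edem1 passed the threshold at 0.37 with DESeq2 and 0.37 with a minimum count of 30, and it ran from 0.32 to 0.42 when each library was left out, where it passed only without KO replicate 2 (adjusted p = 0.0325; the others 0.0516 to 0.116). For Herpud1 this range was 0.24 to 0.37. The number of ERAD genes past the threshold, 0 with all libraries, was 1 with DESeq2, with a minimum count of 30 and at an adjusted p of 0.10, and 0 to 1 with a library left out; that gene was Edem1. Over all genes, 12 passed, against 28 with DESeq2, 22 without a count filter, 33 with the acinar covariate, 30 without the acinar-rich libraries, 26 at an adjusted p of 0.10, 0 with the title number term (530 with an unadjusted p under 0.05) and 5 to 17 with a library left out (5 without KO replicate 1, 6 without KO replicate 4, 7 without control replicate 5). Without scaling factors the median of all genes was -0.03 and the log2 fold change of Edem1 0.33 (edgeR, adjusted p = 0.240). Without the acinar-rich libraries Edem1 was at an adjusted p of 0.0890 (edgeR). Signs turned for 5 of the 10 genes, none of which passed the threshold: without the acinar-rich libraries Edem2 was at 0.043 and Sel1l at -0.067, with the title number term Edem3 was at -0.12, and without scaling factors Syvn1 was at -0.0024. With a library left out, Edem2 ran from -0.13 to 0.0089, Syvn1 from -0.031 to 0.092 and Derl1 from -0.080 to 0.015. The causes were not tested. Of the correlations with Edem1, 0 of 9 passed after adjustment, but 1 did over all 12 libraries (Derl3, r = 0.71) and 0 to 1 with a library left out (Herpud1, r = 0.89 without KO replicate 2, but 0.39 without control replicate 5). The r of Os9, Sel1l, Syvn1 and Derl1 with Edem1 had the opposite sign over all 12 libraries.

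The replicate numbers of the labels did not pair the libraries (same-numbered deviations correlated at -0.11 to 0.05). With the replicate block, Edem1 was at 0.37 (adjusted p = 0.128), Herpud1 at 0.31, and 15 genes passed. Derl3, with the fewest counts, had the largest SE of the 10.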
